A study of Homo sapiens with 48 samples.

Results

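The integrated stress response acts through the transcription factor ATF4, and the genes described here are ATF4 itself and 9 regulators that act with it or are switched on by it. The 10 genes were chosen by name (ATF4, ATF3, ATF5, DDIT3, CEBPB, CEBPG, TRIB3, CHAC1, PPP1R15A and NUPR1), with earlier results of these data known. Of these, 9 had counts among the 14685 genes with a row, and NUPR1 was not analysed here. The RNA came from HEK293T, a human embryonic kidney line, transiently transfected in every group with a plasmid for NCBP1, a subunit of the nuclear cap-binding complex, fused to the self-labelling protein Halo. In T-REX, a photocaged precursor of the lipid-derived electrophile HNE is anchored to Halo, and light then frees HNE beside the fused protein. The groups were T-REX, light alone, probe alone (Ht-PreHNE without light) and DMSO (vehicle without light), each collected after 3, 6 and 12 h as 4 repeats, which gives 48 libraries. The Methods list both probe and light for light alone, so that the name of this group does not by itself say whether its cells had received the probe. No group lacked the NCBP1-Halo plasmid, and all values are averages over cells that took it up and cells that did not.

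The integrated stress response starts when kinases phosphorylate the translation factor eIF2, which lowers general protein synthesis while the ATF4 message is translated better. ATF4 then binds DNA as a dimer with C/EBP partners, at a composite sequence called the C/EBP-ATF response element, and raises genes for amino acid transport and synthesis together with further regulators such as ATF3, CHOP (the product of DDIT3) and TRIB3. Several of these feed back: PPP1R15A encodes GADD34, which directs a phosphatase to eIF2, and TRIB3 is a pseudokinase that restrains ATF4 and CHOP. Much of the control of ATF4 is at translation, which RNA counts do not show.

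Promoter windows of the 10 named genes were looked up, because the regulators described below include the partner and the targets of ATF4. Windows were found for 9 of the 10, and which gene lacked one is not given here. The windows run from 250 bases before to 50 bases after each start in RefSeq (GRCh38.p14). They were searched on both strands for TGATGNAA, the core of the C/EBP-ATF response element, and for TGACGTCA, the cAMP response element, which CREB and ATF proteins bind and which reads the same on both strands. The first was present in windows of 3 of the 9 genes with windows and the second in that of 1 gene. Among all 27305 genes with such windows in RefSeq, 4.46% held TGATGNAA in at least 1 window and 2.25% held TGACGTCA. Counted by window, TGATGNAA was in 3 of the 18 windows of these 9 genes beside 3.62% of all 35116 windows, and TGACGTCA in 1 of 18 beside 1.85%. The 4 stretches are shown 5′ to 3′ along the gene with the matching bases in capitals.
CEBPG, 42 to 35 bases before the start (chr19:33374060-33374089, + strand): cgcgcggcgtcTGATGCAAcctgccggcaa
ATF3, 191 to 184 bases before 1 of its starts (chr1:212565205-212565234, + strand): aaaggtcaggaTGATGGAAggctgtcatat
CHAC1, 209 to 202 bases before the start, matched on the opposite strand (chr15:40953251-40953280, + strand): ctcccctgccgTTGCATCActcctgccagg
PPP1R15A, 58 to 51 bases before the start (chr19:48872352-48872381, + strand): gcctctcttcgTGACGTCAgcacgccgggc
These matches describe the letters of the windows only, and no binding was measured.

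The total of the counts per library lay between 23952455 and 37099535. Levels are given in CPM, the counts scaled to a common library total with TMM factors over all 48 libraries. NCBP1, whose counts do not separate the plasmid from the endogenous gene, had group means from 34640 to 82940 CPM. Of 8 genes known from HEK293T, 7 had a row, from LHX1 (median 2.15 CPM) to VIM (median 525 CPM). Of 10 markers of blood, liver, endothelial, fibroblast, skin or islet cells, only COL1A1 had a row, at 2.13 to 6.07 CPM. Repeats of a group differed by more than counting error in all 72 pairs (chi-square per degree of freedom 3.15 to 46.5).

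Per kilobase of exon, ATF4 was by far the most abundant of the 9, with a median over libraries of 140.1 CPM per kb. ATF3 followed with 29.1 CPM per kb and CEBPG, the C/EBP partner of ATF4, with 17. PPP1R15A stood at 9.52, TRIB3 at 6.53, DDIT3 at 4.27 and ATF5 at 3.31 CPM per kb. The lowest were CHAC1, a glutathione-degrading enzyme, at 1.46 and CEBPB at 0.796 CPM per kb. CEBPB rested on 25 to 100 counts per library and CHAC1 on 47 to 227, against 7171 to 14544 for ATF4. On the same per-length scale the ranges over all 48 libraries of ATF4 (106.5 to 172), ATF3 (22.7 to 36.7) and CEBPG (15.3 to 21.1) did not overlap. PPP1R15A (4.01 to 13.6) overlapped with TRIB3 (4.55 to 9.13), DDIT3 (2.82 to 6.4) with ATF5 (1.82 to 9.2), and CHAC1 (0.762 to 3.89) with CEBPB (0.417 to 1.8), so these neighbours in the order were within each other's spread. On the strand opposite to DDIT3 (median 162 counts) lie MARS1 (median 3374.5) and MBD6 (median 934). NUP62 (median 1630.5 counts) lies opposite to ATF5 (median 306.5), and CEBPB-AS1 (median 59 counts) opposite to CEBPB (median 46). Whether the counting used strand is not given in the sources used here, so counts of DDIT3, ATF5 and CEBPB may include reads of their neighbours. A processed pseudogene, ATF4P3 (median 70 counts), shares sequence with ATF4, and how reads matching both were treated is not given either.

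ATF4 and CEBPG were higher under T-REX than in controls at 12 h, and PPP1R15A, ATF3 and CHAC1 were higher at 3 h against some controls. Without covariates, edgeR called no regulator lower under T-REX at any time. A gene was called at an adjusted p of at most 0.05 by the quasi-likelihood test of edgeR, with the Benjamini-Hochberg adjustment across all 14685 genes. Unless another fit is named, calls by edgeR are from its fit without covariates. At 3 h, 0 of 9 regulators were called against light alone, where 0.197% of all genes were called, and DESeq2 and limma-trend also called 0. At an unadjusted p at or under 0.05 there were 2 of 9, beside 14.8% of all genes. Against probe alone at 3 h, ATF3 and PPP1R15A were called, 2 of 9 beside 1.05% of all genes. Against DMSO at 3 h, CHAC1 and PPP1R15A were called, 2 of 9 beside 5.99%. PPP1R15A was the 1 regulator called the same way against 2 or more of the 3 controls at 3 h, the rule that the study uses for SDE genes and that 0.947% of all genes met.

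At 6 h, edgeR called 0 of 9 regulators against light alone (0.218% of all genes), against probe alone (0.109%) and against DMSO (0.415%), and none met the rule for 2 controls (0.136%). At an unadjusted p at or under 0.05 the regulators numbered 4, 3 and 2 of 9 in these comparisons, beside 11.65%, 6.6% and 12.4% of all genes. DESeq2 called 1 regulator, CEBPG, against light alone at 6 h, and 0 in the other comparisons. At 12 h, ATF4 and CEBPG were called against light alone, 2 of 9 beside 1.29% of all genes. CEBPG alone was called against probe alone at 12 h, 1 of 9 beside 0.701%. Against DMSO at 12 h, ATF4, CEBPG and PPP1R15A were called, 3 of 9 beside 10.9%. ATF4 and CEBPG, 2 of 9, met the rule for at least 2 controls at 12 h, which 1.4% of all genes met. The 3 comparisons of a time point share the T-REX libraries and are not independent of each other. A further fit took as covariates the 2 factors of unwanted variation deposited with the counts (RUV), and the calls of T-REX against a control that it added are given beside each gene. The method behind these factors is not stated, and whether the p-values of that fit are too small was not tested. Calls between controls rose in it as well, for light alone against probe alone at 3 h from 2 to 4 of 9 regulators.

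**Figure D1:**
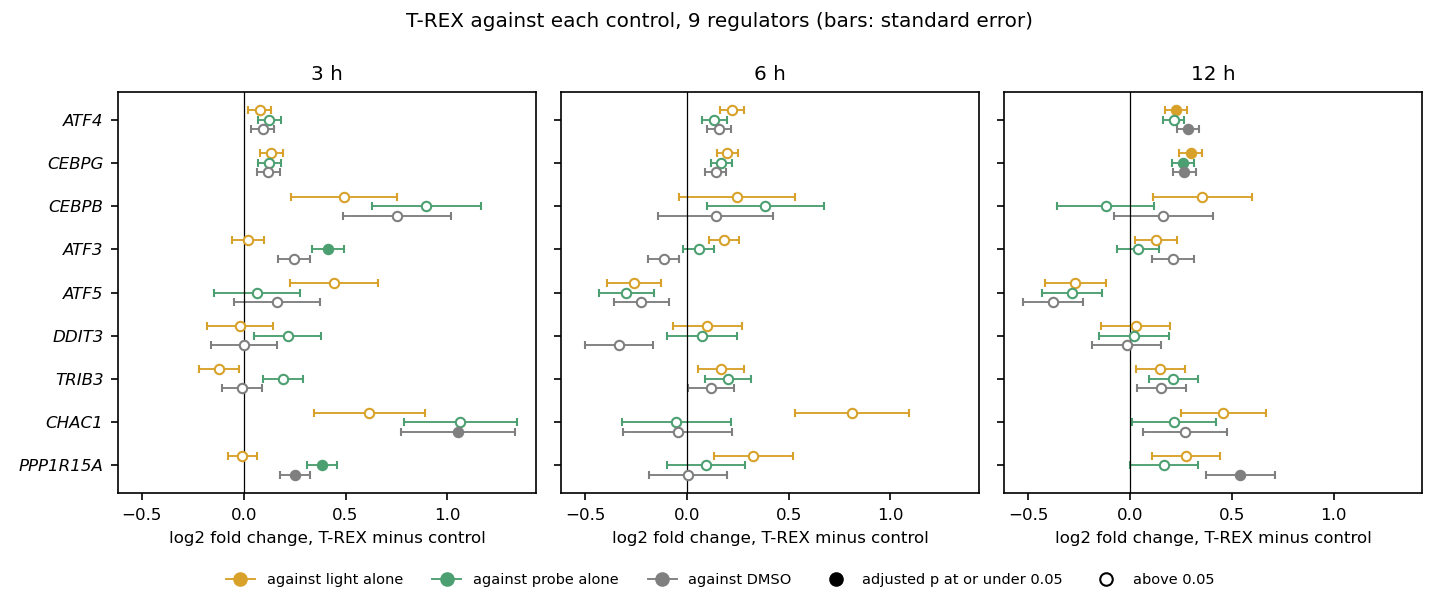
Log2 fold change of T-REX over each control (horizontal axis, points with standard errors from edgeR) for the 9 regulators at 3, 6 and 12 h; filled points have an adjusted p of at most 0.05. At 12 h all 3 points of CEBPG and those of ATF4 against light alone and DMSO are filled, while at 6 h none is.

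ATF4, the central transcription factor of the response, was 1.17-fold higher in T-REX cells than with light alone at 12 h and 1.22-fold higher than with DMSO. The 4 T-REX libraries at 12 h had 384, 378, 354 and 392 CPM. Light alone gave 318, 320.2, 316 and 338 CPM, and probe alone 316, 312, 325 and 343 CPM. Every T-REX library lay above every control library at 12 h, DMSO included, whose values were 329, 314, 271 and 322 CPM. The third DMSO library was the lowest of the 16. The log2 fold change at 12 h was 0.23 against light alone (standard error 0.053, adjusted p = 0.0251 from edgeR) and 0.28 against DMSO (standard error 0.053, adjusted p = 0.00129). Against probe alone the ATF4 difference was 0.22 (standard error 0.053), with an adjusted p = 0.0561 that missed the threshold. That difference was called by DESeq2 (adjusted p = 0.013) and in a fit of only the 2 groups (adjusted p = 0.00252), as well as with the RUV covariates (adjusted p = 1.86e-05). The call against DMSO was kept whichever library was left out, whereas the call against light alone was lost in 6 of 16 such fits, those without T-REX replicate 1, 2 or 4 or light alone replicate 1, 2 or 3 (adjusted p up to 0.11). NCBP1 itself averaged 57500 CPM under T-REX at 12 h, beside 40520 for light alone, 59150 for probe alone and 34640 for DMSO, and its part in these differences was not tested. In bulk RNA, a higher level per cell and a larger share of responding cells cannot be told apart.

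At 6 h, the ATF4 values under T-REX were 359, 382, 376 and 376 CPM. They again lay above all 12 control libraries, which ran from 268 (light alone, replicate 3) to 354 CPM (probe alone, replicate 4). Relative to light alone, probe alone and DMSO the log2 fold changes at 6 h were 0.22, 0.14 and 0.16, with adjusted p-values of 0.13, 0.72 and 0.27, and none was called. With the RUV covariates the differences from light alone and DMSO were called (adjusted p = 0.000187 and 0.0102). At 3 h, T-REX (373 to 432 CPM) overlapped with light alone (359 to 403), probe alone (338 to 393) and DMSO (365 to 386 CPM), and the log2 fold changes were 0.08, 0.12 and 0.09, of which the second was called only with the RUV covariates (adjusted p = 0.0432). Within the T-REX group the mean was 397 ± 27 CPM (SD, n = 4) at 3 h, 373 ± 9.76 at 6 h and 377 ± 16.2 at 12 h. In DMSO the mean was 373 ± 9.44 CPM at 3 h and 309 ± 26.2 CPM at 12 h.

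CEBPG encodes C/EBPγ, a C/EBP family member that pairs with ATF4, and it was the regulator called against all 3 controls at 12 h. T-REX libraries at 12 h had 92.5, 93.1, 80.7 and 81.4 CPM. The values were 71.4, 70.9, 68.3 and 72.7 CPM with light alone and 71.8, 69.99, 74.9 and 73.1 CPM with probe alone. DMSO libraries had 74.1, 74.7, 71.1 and 68.7 CPM, so that the lowest T-REX value exceeded the highest of 12 control values. T-REX replicates 1 and 2 were the higher pair. The log2 fold change over light alone was 0.30 (standard error 0.055, adjusted p = 0.0033 from edgeR). Over probe alone it was 0.26 (standard error 0.055, adjusted p = 0.0197), and over DMSO 0.27 (standard error 0.055, adjusted p = 0.00296). No single left-out library ended the calls against light alone or DMSO. The call against probe alone was lost in 5 of 16 fits, those without T-REX replicate 1 or 2 or probe alone replicate 1, 2 or 3 (adjusted p up to 0.131).

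At 6 h, CEBPG stood at 78.1, 84.4, 87.4 and 80.7 CPM under T-REX, above all 12 control values (67.5 to 77.6 CPM). Its log2 fold change at 6 h was 0.20 over light alone, 0.17 over probe alone and 0.14 over DMSO (adjusted p = 0.122, 0.419 and 0.252 from edgeR). The first was called by DESeq2 (adjusted p = 0.0349) and those over light alone and probe alone with the RUV covariates (adjusted p = 0.00496 and 0.0455). At 3 h they were 0.13, 0.13 and 0.12, and the T-REX libraries (81.8 to 90.9 CPM) overlapped with those of each control. For both CEBPG and ATF4, T-REX lay above all controls with no overlap at 6 and 12 h, though edgeR without covariates called neither at 6 h. How many of all genes separate in this way was not counted, so the lack of overlap is a description only.

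**Figure D2:**
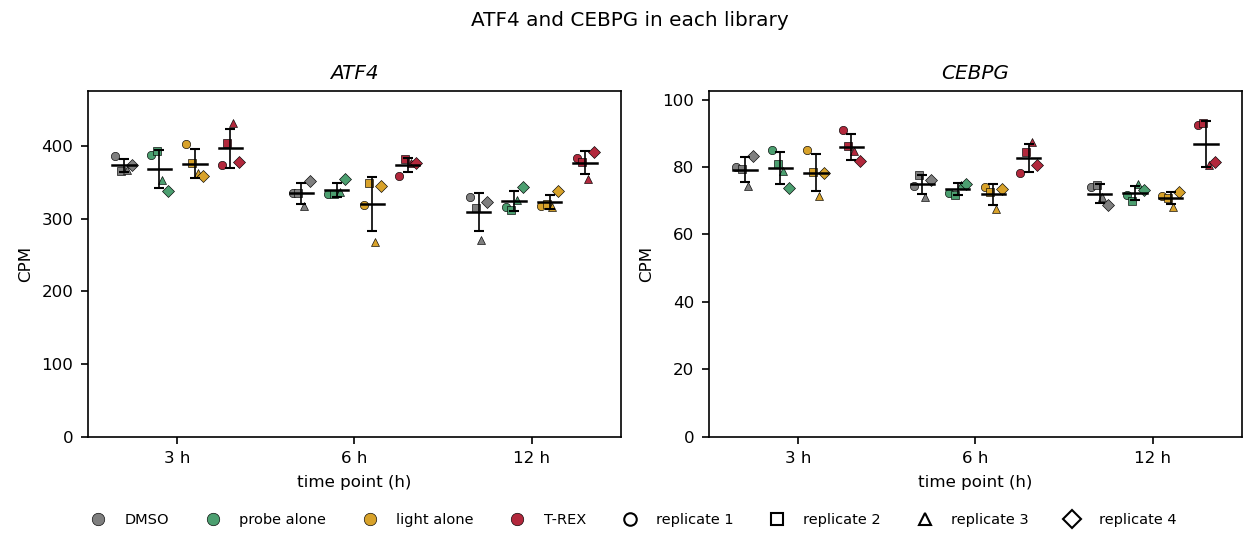
ATF4 and CEBPG in CPM (vertical axis, from 0) in each of the 48 libraries at 3, 6 and 12 h; points are libraries with 1 symbol per replicate number, horizontal bars are means and vertical bars SDs of 4 libraries. At 12 h the T-REX libraries lie at 354 to 392 CPM for ATF4 and 80.7 to 93.1 CPM for CEBPG, above every control library.

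ATF3, a stress-induced bZIP factor, was higher at 3 h in both groups given light, T-REX and light alone, than in cells given probe only. At 3 h, the ATF3 values were 128, 118, 140.5 and 114 CPM under T-REX. Light alone gave 137, 126, 120.2 and 109.5 CPM, which overlapped with T-REX over most of its range. With probe alone the values were 96.9, 93.8, 96.4 and 91.9 CPM and with DMSO 94.8, 101, 122 and 104.5 CPM. All probe alone libraries lay below all T-REX and light alone libraries, while 1 DMSO library, replicate 3, reached into their range. T-REX exceeded probe alone by a log2 fold change of 0.41 (standard error 0.080, adjusted p = 0.0202 from edgeR), a call lost without probe alone replicate 1, 2 or 3 (adjusted p up to 0.0908) and in the fit of only these 2 groups (adjusted p = 0.0728). Against DMSO the difference was 0.25 (standard error 0.079, adjusted p = 0.0703), called by DESeq2 (adjusted p = 0.0413) and with the RUV covariates (adjusted p = 0.0213). Against light alone it was 0.02 (standard error 0.079, adjusted p = 0.945). Light alone itself exceeded probe alone at 3 h by 0.39 (standard error 0.079, adjusted p = 0.0436), which was lost in 12 of 16 fits that left out a library. Those 12 fits left out T-REX replicate 1 or 2, light alone replicate 1, 2 or 3, any probe alone replicate, or DMSO replicate 1, 2 or 4, with adjusted p up to 0.181.

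At 6 h, ATF3 averaged 121 ± 9.48 CPM under T-REX, 106 ± 13.7 for light alone, 116 ± 9.49 for probe alone and 131 ± 4.14 for DMSO (SD, n = 4). At 12 h the means were 126 ± 8.89, 116 ± 15.2, 123 ± 17.2 and 109.0 ± 14.9 CPM in the same order. None of the comparisons of T-REX with a control was called by edgeR without covariates for ATF3 at 6 or 12 h, and groups overlapped in all of them. The difference from light alone at 6 h, 0.19 on the log2 scale with the RUV covariates, was called in that fit (adjusted p = 0.00615).

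PPP1R15A, the feedback phosphatase subunit GADD34, was higher at 3 h under T-REX than in cells given probe only or DMSO, and its levels under T-REX and light alone were close. T-REX libraries had 37.4, 36.4, 42.1 and 36.6 CPM, and light alone 41.4, 36.6, 37.9 and 37.2 CPM. Probe alone gave 30.9, 27.3, 29.5 and 30.4 CPM, and DMSO 33.8, 29.3, 34.5 and 30.8 CPM. The 8 libraries of T-REX and light alone all lay above the 8 of probe alone and DMSO. T-REX exceeded probe alone by a log2 fold change of 0.38 (standard error 0.073, adjusted p = 0.0147 from edgeR) and DMSO by 0.25 (standard error 0.072, adjusted p = 0.0431). It did not differ detectably from light alone, with a log2 fold change of -0.01 (standard error 0.072, adjusted p = 0.981). Light alone exceeded probe alone by 0.39 (standard error 0.072, adjusted p = 0.0267) and DMSO by 0.26 (standard error 0.072), and only the first of these was called (adjusted p = 0.339 for the second). The call of T-REX against DMSO was lost in 9 of 16 fits that left out a library: T-REX replicate 3 or 4, light alone replicate 2 or 3, probe alone replicate 1 or 3, or DMSO replicate 1, 2 or 4 (adjusted p up to 0.153). Against probe alone it was lost without probe alone replicate 2 (adjusted p = 0.08), and that of light alone against probe alone was lost without replicate 1, 2 or 3 of either group (adjusted p up to 0.106). Both calls of T-REX were lost in fits of only the 2 groups compared (adjusted p = 0.112 against probe alone and 0.137 against DMSO).

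At 12 h, PPP1R15A had 33.7, 28.7, 28.8 and 33.6 CPM under T-REX and 23.8, 22.4, 12.4 and 27.01 CPM with DMSO. The groups did not overlap, and DMSO replicate 3 was far below the other 3. The difference was called (log2 fold change 0.54, standard error 0.17, adjusted p = 0.0485 from edgeR). It was lost in 12 of 16 fits that left out a library, namely any T-REX library, replicate 1, 2 or 3 of light alone or probe alone, or DMSO replicate 1 or 2, and when only the 2 groups were fitted (adjusted p = 0.096). Over these 16 fits its log2 fold change ran from 0.36 to 0.67. Against light alone and probe alone at 12 h the differences were 0.28 and 0.17 and were not called by edgeR with 4 groups in the fit. That from light alone was called when only the 2 groups were fitted (adjusted p = 0.0167) and with the RUV covariates (adjusted p = 0.00728). At 6 h, light alone ranged from 13.4 (replicate 3) to 36.3 CPM (replicate 4), and no comparison of T-REX was called by edgeR, while that with light alone was called with the RUV covariates (adjusted p = 0.000577).

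CHAC1, whose product degrades glutathione, had the largest log2 fold change among the calls of T-REX against a control. Its T-REX libraries at 3 h had 4.29, 4.61, 8.001 and 7.70 CPM. DMSO gave 2.46, 2.30, 3.59 and 3.54 CPM, and probe alone 3.44, 2.37, 3.45 and 2.62 CPM. T-REX did not overlap with either of these, whereas light alone (3.04, 5.04, 5.55 and 2.32 CPM) reached above the 2 lower T-REX libraries. The log2 fold change over DMSO was 1.05 (standard error 0.28, adjusted p = 0.0343 from edgeR). Over probe alone it was 1.06 (standard error 0.28, adjusted p = 0.0699), and over light alone 0.62 (standard error 0.27, adjusted p = 0.301). With the RUV covariates both of these were called (adjusted p = 3.17e-05 and 0.00856). The call against DMSO was lost in 5 of 16 fits, those without T-REX replicate 3 or 4 or DMSO replicate 1, 2 or 4 (adjusted p up to 0.114), and when only these 2 groups were fitted (adjusted p = 0.0551). T-REX replicates 3 and 4 were the higher pair.

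At 6 h, CHAC1 under T-REX (2.73, 2.96, 3.81 and 4.26 CPM) lay above light alone (2.26, 1.85, 1.64 and 2.08 CPM) without overlap, at a log2 fold change of 0.81 that was not called (standard error 0.28, adjusted p = 0.269). Against probe alone and DMSO at 6 h it was -0.05 in both. At 12 h the log2 fold changes of CHAC1 were 0.46, 0.22 and 0.27, and none was called.

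**Figure D3:**
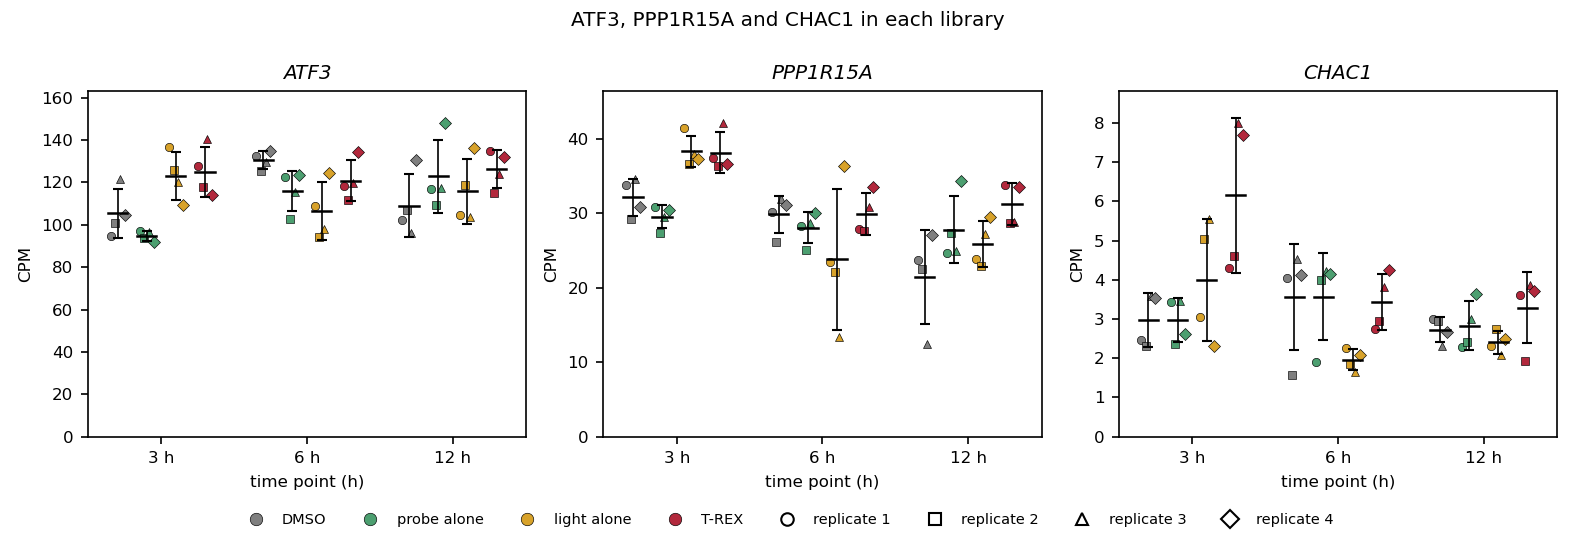
ATF3, PPP1R15A and CHAC1 in CPM (vertical axes, from 0) in each library at 3, 6 and 12 h; points are libraries, horizontal bars means and vertical bars SDs of 4 libraries. At 3 h, T-REX and light alone lie above probe alone for ATF3 and PPP1R15A, and CHAC1 has its highest libraries, 7.70 and 8.001 CPM, under T-REX.

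The other 4 regulators (CEBPB, ATF5, DDIT3 and TRIB3) were not called by edgeR without covariates in any comparison between groups at a time point. CEBPB, a C/EBP factor with few counts, had 1.44, 1.81, 3.52 and 1.87 CPM under T-REX at 3 h and 1.43, 1.13, 1.35 and 1.249 CPM with DMSO. These values did not overlap, and replicate 3 of T-REX stood far above the rest of its group. Over light alone, probe alone and DMSO the log2 fold changes at 3 h were 0.49, 0.90 and 0.75 (standard errors 0.26, 0.27 and 0.26, adjusted p = 0.394, 0.0859 and 0.0936 from edgeR). With the RUV covariates the differences of CEBPB from probe alone and DMSO were 0.83 and 0.67 and were called (adjusted p = 0.00833 and 0.0272). The same T-REX replicate 3 was also the highest of its group for ATF4, ATF3, ATF5, DDIT3, CHAC1 and PPP1R15A.

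ATF5, another bZIP factor that is translated under eIF2 phosphorylation, had log2 fold changes below 0 against every control at 6 and 12 h, none of which was called by edgeR. Its T-REX libraries at 12 h had 6.30, 6.59, 6.47 and 5.38 CPM, and light alone 7.03, 8.39, 6.79 and 7.60 CPM. T-REX lay below light alone without overlap and below most libraries of the other controls. Over light alone, probe alone and DMSO the log2 fold changes at 12 h were -0.27, -0.28 and -0.38 (adjusted p = 0.462, 0.493 and 0.101). With the RUV covariates the last of these, -0.36 in that fit, passed the threshold (adjusted p = 0.0301), so that ATF5 was called lower under T-REX than in DMSO. At 6 h they were -0.26, -0.30 and -0.22, and at 3 h 0.44, 0.07 and 0.16, of which the first was called only with the RUV covariates (0.38, adjusted p = 0.00854).

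DDIT3, which encodes the death-promoting factor CHOP, had nearly the same level in all groups at 12 h. T-REX had 5.65, 5.57, 5.65 and 5.46 CPM, and the means were 5.58 ± 0.0892 CPM under T-REX, 5.50 ± 1.29 for light alone, 5.50 ± 1.34 for probe alone and 5.64 ± 0.927 for DMSO (SD, n = 4). The log2 fold changes of DDIT3 over the 9 comparisons of T-REX with a control ran from -0.33 (6 h, DMSO) to 0.21 (3 h, probe alone), with standard errors of 0.16 to 0.17. A change in DDIT3 of the size seen for ATF4 was not detectable with these standard errors.

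TRIB3 averaged 22.4 ± 2.97 CPM under T-REX at 3 h, 25.3 ± 4.17 at 6 h and 22.6 ± 2.51 at 12 h (SD, n = 4). Over light alone, probe alone and DMSO its log2 fold changes were -0.12, 0.19 and -0.01 at 3 h. At 6 h they were 0.17, 0.20 and 0.12 and at 12 h 0.15, 0.21 and 0.15. All 6 values at the later times were above 0, with standard errors of 0.11 to 0.12, and none was called.

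**Figure D4:**
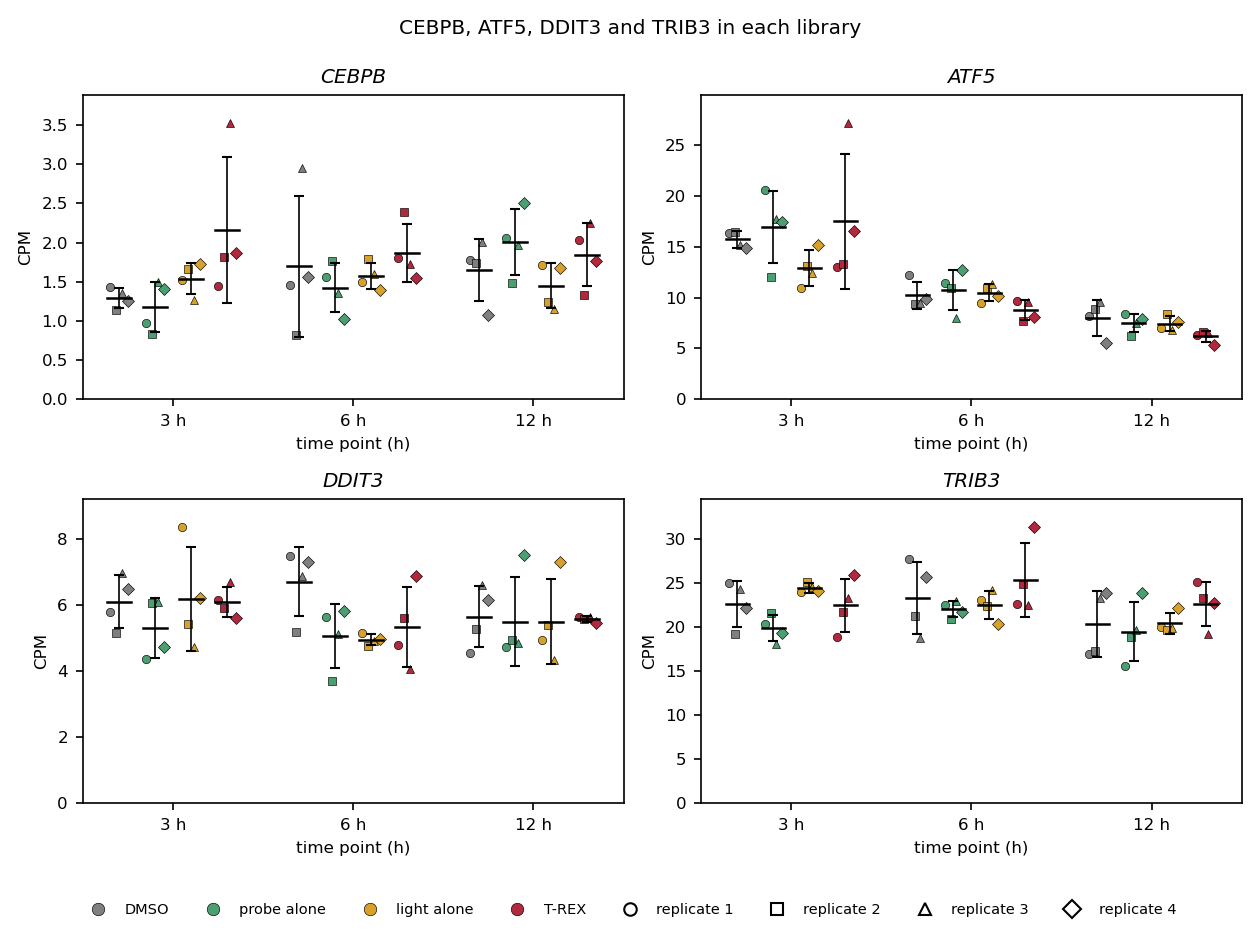
CEBPB, ATF5, DDIT3 and TRIB3 in CPM (vertical axes, from 0) in each library at 3, 6 and 12 h; points are libraries, horizontal bars means and vertical bars SDs of 4 libraries. The level of ATF5 is lower at 12 h (5.38 to 9.52 CPM over all groups) than at 3 h (10.96 to 27.2 CPM).

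The controls were compared with each other to see how far the regulators moved without T-REX. ATF3 and PPP1R15A were called higher at 3 h with light alone than with probe alone, 2 of 9 beside 0.232% of all genes. In the other 8 comparisons of controls edgeR called 0 of 9 regulators. Against DMSO, light alone gave 2, 3 and 0 regulators at an unadjusted p at or under 0.05 at 3, 6 and 12 h. Of all genes, 7.78%, 14.4% and 10.4% met that unadjusted threshold, and 0.00681%, 0.00681% and 0.0136% were called. Probe alone against DMSO gave 1, 2 and 1 regulators at that unadjusted threshold, beside 5.11%, 8.21% and 23.3% of all genes. Called there were 0.00681%, 0.0272% and 5.11% of all genes. Light alone against probe alone gave 1 and 0 regulators at the unadjusted threshold at 6 and 12 h, beside 8.42% and 12.6% of all genes. Called there were 0.0613% and 0.415% of all genes. DESeq2 called 1 regulator, ATF3, between light alone and DMSO at 6 h, and 0 in the other 7 comparisons. ATF3 there had 109.0, 94.0, 97.8 and 124.5 CPM with light alone and 132, 125, 129.8 and 135.0 CPM with DMSO. These libraries did not overlap, at a log2 fold change of -0.30 (standard error 0.076, adjusted p = 0.153 from edgeR).

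Whether the effect of T-REX changed with time was tested as an interaction in 1 fit of all 48 libraries. For the 9 regulators, 0 interactions between 3 and 6 h were called by edgeR or DESeq2 against light alone (0% of all genes), probe alone (0%) or DMSO (0.0136%). At an unadjusted p at or under 0.05 there were 1, 2 and 2 regulators, beside 4.57%, 8.2% and 15.4% of all genes. Between 3 and 12 h, 0 were called by either tool against light alone (0.0204%), probe alone (0.0681%) or DMSO (0.00681%). The regulators at an unadjusted p at or under 0.05 numbered 2, 4 and 4, beside 7.4%, 13.4% and 9.7% of all genes. For ATF4 the T-REX effect against DMSO was larger at 12 h than at 3 h by 0.20 on the log2 scale (standard error 0.084, adjusted p = 0.421). For CEBPG it was larger by 0.15 (standard error 0.075, adjusted p = 0.508). For CHAC1 the effect against DMSO was smaller at 6 h than at 3 h, by -1.09 (standard error 0.37, adjusted p = 0.166). The calls of CEBPG and ATF4 at 12 h, and of CHAC1 at 3 h, were therefore not shown to belong to those times.

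In DMSO cells alone, levels of several regulators fell over the time course. Between 3 and 6 h, ATF3 rose and ATF5 fell, 2 of 9 beside 16% of all genes called. Between 3 and 12 h, ATF4, ATF5, CEBPG and PPP1R15A fell, 4 of 9 beside 38.8% of all genes, a share close to that of genes in general. ATF5 had 16.3, 16.5, 15.2 and 14.9 CPM at 3 h and 8.23, 8.85, 9.52 and 5.49 CPM at 12 h. These did not overlap, and the log2 fold change was -0.97 (standard error 0.17, adjusted p = 7.94e-06 from edgeR). For ATF4 it was -0.27 (standard error 0.059, adjusted p = 0.000246), for PPP1R15A -0.58 (standard error 0.17, adjusted p = 0.00586) and for CEBPG -0.14 (standard error 0.053, adjusted p = 0.0373). ATF3 rose from 105.5 ± 11.53 to 131 ± 4.14 CPM (SD, n = 4) between 3 and 6 h (log2 fold change 0.31, adjusted p = 0.0238). Of these 6 calls, ATF3 and CEBPG were each lost in 5 of 48 fits that left out a library. They were ATF3 without DMSO replicate 1, 2 or 4 at 3 h or 1 or 4 at 6 h (adjusted p up to 0.0925), and CEBPG without DMSO replicate 1, 2 or 4 at 3 h or 3 or 4 at 12 h (adjusted p up to 0.131). Time and any difference in handling between time points cannot be told apart.

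Other genes of the pathway were taken as 6 lists with 109 genes in all that had a row, and the share of all genes called is as given above for each comparison. Amino acid transporters and enzymes known as ATF4 targets stood out in number at 6 and 12 h. Of 21 such genes, 8 were called higher under T-REX at 12 h over light alone, 6 over probe alone and 12 over DMSO, and 0 lower. The median log2 fold changes of the list at 12 h were 0.32, 0.26 and 0.33, beside medians of 0.000913, 0.00138 and 0.00313 over all genes. At 6 h the calls were 3, 1 and 6 higher and 0 lower, and at 3 h 1, 3 and 2 higher with 1 lower against probe alone. The XBP1 and ATF6 branch described below had 1, 1 and 5 of 17 genes called higher at 3 h and 0 lower. Against at least 2 controls, 2, 2 and 7 of the 21 were higher at 3, 6 and 12 h. SLC7A11, the cystine importer, was higher against all 3 controls at 12 h, at log2 fold changes of 0.77, 0.73 and 0.90 over light alone, probe alone and DMSO (adjusted p = 0.000958, 0.00257 and 9.79e-05 from edgeR). At 6 h SLC7A11 was higher by 0.69, 0.73 and 0.80 (adjusted p = 9.58e-05, 2.2e-05 and 8.02e-06). SLC1A4, a neutral amino acid transporter, met the rule for at least 2 controls at all 3 times, and was higher than with DMSO by 0.38, 0.45 and 0.59 at 3, 6 and 12 h. SLC6A9, a glycine transporter, was higher at 12 h by 0.50, 0.73 and 0.80 in the same order of controls (adjusted p = 0.0378, 0.00273 and 0.000266).

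For the machinery before ATF4, calls were made against DMSO and not against the other controls. Of 18 genes of eIF2 phosphorylation and eIF2B (the 4 eIF2 kinases among them), 0 were called by edgeR against light alone or probe alone at any time. At an unadjusted p at or under 0.05 they numbered 1 to 6 of 18 in these 6 comparisons, beside 6.6% to 18.01% of all genes. DESeq2 called 0 to 2 of the list. Against DMSO, 1 was higher and 2 lower at 3 h, 3 of 18 beside 5.99% of all genes, and 2 were higher and 1 lower at 12 h, 3 of 18 beside 10.9%. At 6 h 0 were called against DMSO (2 at an unadjusted p at or under 0.05, beside 12.4% of all genes, and 0 by DESeq2). Their 9 medians lay between -0.03 and 0.04 on the log2 scale. Among 7 genes of ATF4 protein turnover and its cofactors, 1 was called, lower than with DMSO at 3 h. Among 27 bZIP relatives and partners with a row (of 29), CREB5 was the 1 that met the rule for at least 2 controls, at 6 h (log2 fold changes of 0.23 over light alone and 0.30 over DMSO, adjusted p = 0.0496 and 0.00387). Over probe alone CREB5 differed by 0.12 and was not called (adjusted p = 0.664 from edgeR).

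Of 19 further ATF4 and CHOP targets with a row (of 21), 2, 0 and 2 were higher against at least 2 controls at 3, 6 and 12 h and 0 were lower. HERPUD1, a component of protein degradation at the endoplasmic reticulum, was higher at 3 h by 0.41 against probe alone and 0.50 against DMSO (adjusted p = 0.00817 and 0.00104 from edgeR). Against light alone at 3 h HERPUD1 differed by 0.16 and was not called (adjusted p = 0.282). NIBAN1 was higher at 12 h by 0.79 against light alone and 0.81 against DMSO (adjusted p = 0.0302 and 0.00744). Its difference from probe alone, 0.76, missed the threshold (adjusted p = 0.0598 from edgeR). EIF4EBP1, a repressor of cap-dependent translation, was higher at 12 h by 0.47 against light alone and 0.41 against DMSO (adjusted p = 0.0282 and 0.0179). Against probe alone EIF4EBP1 differed by 0.24 and was not called (adjusted p = 0.418 from edgeR). In the neighbouring XBP1 and ATF6 branch of the unfolded protein response (17 genes), 1, 1 and 2 genes met the rule at the 3 times. XBP1 was among them each time, with log2 fold changes at 3 h of 0.41, 0.30 and 0.34 over light alone, probe alone and DMSO. HSPA5, the chaperone BiP, was higher at 12 h by 0.21 against light alone and 0.18 against DMSO (adjusted p = 0.0372 and 0.0202). Against probe alone HSPA5 differed by 0.04 and was not called (adjusted p = 0.837 from edgeR).

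**Figure D5:**
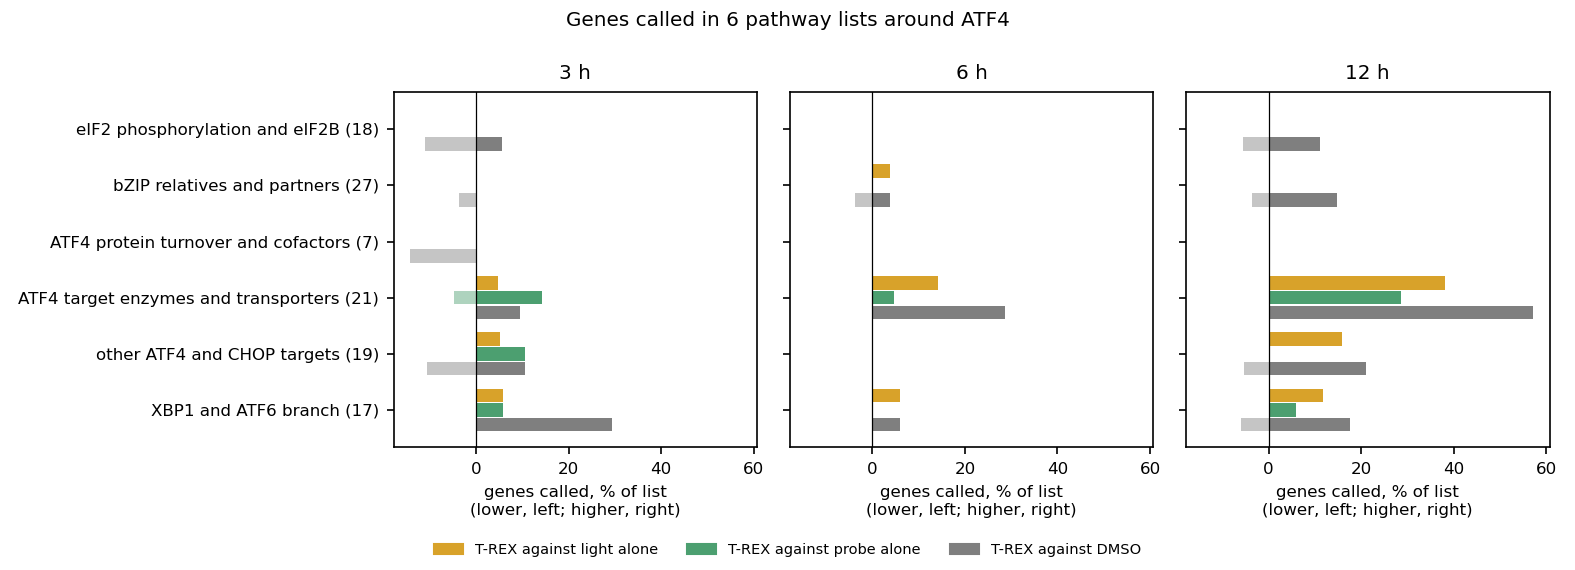
Share of genes of 6 pathway lists called by edgeR for T-REX against each control at 3, 6 and 12 h (horizontal axis, percent of the list; bars to the right are higher under T-REX and paler bars to the left lower; list sizes in parentheses). ATF4 target enzymes and transporters reach 12 of 21 genes against DMSO at 12 h, while the eIF2 and eIF2B list has 0 calls at 6 h.

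Correlations across libraries differed between pairs of regulators. After the mean of each time point was subtracted, the log2 CPM of ATF4 over 48 libraries correlated with that of CEBPG at r = 0.76 and of PPP1R15A at r = 0.73, but with that of DDIT3 at r = 0.14 and of ATF5 at r = -0.28. ATF3 went with PPP1R15A at r = 0.75 and with DDIT3 at r = 0.59. With the mean of each group also subtracted, which leaves the spread between repeats, ATF4 and PPP1R15A stood at r = 0.69 and ATF4 and CEBPG at r = 0.48. The points of a correlation are the same libraries, whose depth and scaling both genes share, and these values are descriptions. Counting error lowers r for genes with few counts, such as DDIT3 and ATF5.

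Among 10114 genes with a mean log2 CPM above 3, the 5 whose pattern was most like that of ATF4 over the 48 libraries, by Pearson r after subtracting time means, were SLC7A1 (r = 0.85), SLC1A4 (r = 0.83), SARS1 (r = 0.83), MARS1 (r = 0.80) and YARS1 (r = 0.78). The first of these are amino acid transporters and the last 3 aminoacyl-tRNA synthetases. For DDIT3 the 5 were GEM (r = 0.59), ATF3 (r = 0.59), E2F7 (r = 0.57), ERVK13-1 (r = 0.57) and EZH2 (r = 0.55). All 5 values for DDIT3 lay below all 5 for ATF4.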

How the data were processed

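RNA-seq of HEK293T cells was taken as deposited, in 4 groups at 3 time points with 4 libraries each. The authors deposited raw counts per gene for each time point, made from stranded libraries after depletion of ribosomal RNA. The study's reporting summary lists the aligner TopHat among its RNA-seq tools, with cutadapt and Cufflinks. The counting tool, genome build, strand setting and treatment of shared reads are not given in the sources used here. The authors also deposited log2 CPM and, per library, a score for each of 2 factors of unwanted variation (RUV), whose method is not stated. Both served only in alternatives, and the table of values corrected for these factors was not used. Groups were read from the labels, whose repeats define the replicates, and p-values measure the spread between these libraries.

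Counts were fitted in R 4.3.3 with edgeR 4.0.16 (TMM, filterByExpr, which removed 0 of 14685 genes, robust quasi-likelihood F-test), with the 16 libraries of a time point in 1 fit and all 48 in 1 fit for changes over time. p-values were two-sided and adjusted by Benjamini and Hochberg over all genes of a comparison, with a threshold of 0.05. The biological coefficient of variation was 11.9%, 10.0% and 9.35% at 3, 6 and 12 h. Levels are CPM with TMM factors over all 48 libraries, and levels per length use exon lengths of GENCODE 29. The edgeR step was tested on simulated data. Alternatives were DESeq2 1.42.0, RLE factors, no filter, a block for the replicate number, covariates for both RUV factors, fits of 2 groups at a time, limma-trend (limma 3.58.1) on the deposited log2 CPM, and leaving out each library in turn. The members and gene lists were chosen with earlier results of these data known. Named genes are all members, NCBP1, at most 3 genes per list and direction that met the rule for 2 controls at most times, and the 5 genes most like ATF4 and DDIT3. Promoter windows are from RefSeq (GRCh38.p14).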

Additional observations from a re-analysis of the deposited data

Results flagged for a closer look

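Among 108 sets of 4 libraries (9 genes in 12 groups), 5 held a library far from the other 3 by Dixon's test, and chance alone flags about 1 set in 20. DDIT3 was at 7.51 CPM in probe alone replicate 4 at 12 h, against 4.71 to 4.93 CPM in the other 3. TRIB3 was at 22.2 CPM in light alone replicate 4 at 12 h, against 19.7 to 20.02 CPM. CHAC1 was at 1.9 CPM in probe alone replicate 1 at 6 h, against 4.0 to 4.23 CPM. CHAC1 was also low in DMSO replicate 2 at 6 h, at 1.57 CPM against 4.05 to 4.52 CPM, and in T-REX replicate 2 at 12 h, at 1.94 CPM against 3.61 to 3.86 CPM. None of these 5 sets belongs to a comparison in which edgeR called that gene.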

How the results depend on the processing

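RLE factors changed none of the 29 counts of regulators called by more than 1.5 times, and no called log2 fold change of a regulator changed sign under any alternative. The fit with no filter on low counts repeats the main fit, because the filter removed 0 genes, and is therefore no check. The RUV factors as covariates raised 16 counts: at 3 h to 2, 5 and 4 for T-REX against light alone, probe alone and DMSO, to 1 for light alone against DMSO and to 4 for light alone against probe alone. At 6 h they gave 4, 1 and 1 for T-REX in the same order, 3 for light alone against DMSO, 1 for probe alone against DMSO and 1 for light alone against probe alone. At 12 h they gave 2 for T-REX against probe alone and 1 each for light alone and probe alone against DMSO, and the rule for 2 controls was met by 4 regulators at 3 h and 2 at 6 h. Fits of only the 2 groups gave 0 for T-REX against probe alone and DMSO at 3 h, 0 for the rule at 3 h and 2 against probe alone at 12 h. limma-trend gave 1 for light alone against probe alone at 3 h. DESeq2 gave 1 for T-REX against light alone and 1 for light alone against DMSO at 6 h, 2 for T-REX against probe alone at 12 h and 2 for the rule at 3 h. Over the 6 pathway lists DESeq2 called 10 genes against light alone at 3 h (edgeR 3), 16 against probe alone at 3 h (edgeR 7), 10 and 6 against these controls at 6 h (edgeR 5 and 1), and 24 and 13 at 12 h (edgeR 13 and 7). The causes were not tested.

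The replicate number as a block gave 1 for light alone against DMSO at 6 h, 2 for T-REX against probe alone at 12 h and 3 for the rule at 3 h, and moved no other count by over 1.5 times. The calls of T-REX it added were ATF3 against DMSO at 3 and 12 h (adjusted p = 0.0339 and 0.0371), CHAC1 against probe alone at 3 h (adjusted p = 0.04995) and ATF4 against probe alone at 12 h (adjusted p = 0.0452). Libraries of the same number did not consistently deviate together: 12, 11 and 8 of 24 pairs had a correlation above 0.1 at 3, 6 and 12 h. Median correlations were 0.069, -0.01 and 0.0027 for the same number, beside -0.013, -0.017 and 0.0029 for other numbers. Closest to their own number were 4, 9 and 3 of 16 libraries, the most at 6 h. The numbers were not taken as pairs, and whether libraries were paired at 6 h was not tested.

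Leaving out 1 library at a time gave 0 for T-REX against light alone, 0 to 3 against probe alone and 0 to 3 against DMSO at 3 h. The counts were 0 to 2, 0 and 0 at 6 h and 1 to 2, 0 to 2 and 2 to 5 at 12 h. Light alone against probe alone at 3 h gave 0 to 2, and light alone against DMSO at 6 h 0 to 2. The rule for 2 controls was met by 0 to 2 regulators at 3 h, 0 at 6 h and 1 to 2 at 12 h. In DMSO over time the counts ran from 1 to 3 at 6 h and 3 to 4 at 12 h. The other counts stayed at 0.

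CEBPB (25 to 100 counts) and CHAC1 (47 to 227 counts) have the least depth, so changes of the size seen for ATF4 were not detectable in them. Only RNA was analysed here, and protein levels of ATF4 were not.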
